A study of Mus musculus with 60 samples.

Results

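Neurotrophins are secreted growth factors that neurons use to support survival, dendritic growth and synaptic change. They were examined here through 7 genes, taken by name as a family and not by a threshold on their values, out of 46480 genes in the deposited tables. These are the ligands *Bdnf* (brain-derived neurotrophic factor) and *Ntf3* (neurotrophin-3), the tyrosine kinase receptors *Ntrk2* (TrkB) and *Ntrk3* (TrkC), the p75 receptor *Ngfr*, the sorting receptor *Sort1* (sortilin), and *Vgf*, a secreted peptide precursor induced by neurotrophins. All 7 passed the filter on low counts and were tested among 17040 genes.

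Mature BDNF binds TrkB and neurotrophin-3 binds mainly TrkC, and each receptor then signals through its kinase domain. Unprocessed proneurotrophins instead bind p75 together with sortilin, and sortilin also directs BDNF into secretory vesicles. In the hippocampus, *Bdnf* is transcribed in granule neurons of the dentate gyrus (DG) and its product travels in their mossy fibres, and its transcription responds to neuronal activity.

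RNA-Seq was made from punches of dorsal and ventral DG of male C57BL6J mice, which were weaned on day 22 into standard housing (SH) or an enriched environment (EE) for 8 weeks and collected at 80 days. EE mice lived 12 to a large cage with wheels and toys that changed weekly, and SH mice lived in small groups in smaller cages. No allele or agent is given in the labels, so housing was the one treatment. Each sample pooled tissue of several mice, and both regions were taken from the same pools, so that a dorsal and a ventral sample with equal housing and number share their mice. There were 5 samples in each of the 4 groups, and SH replicate 3 was left out in both regions, so that 18 samples from 9 pools were used (4 SH, 5 EE). *Xist*, an RNA of the inactive X chromosome in females, reached 34.3 and 11.9 CPM (gene counts rescaled so that libraries of unequal depth compare) in the dorsal and ventral samples of SH replicate 3, and at most 0.652 in the others.

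Between 22919364 and 28301861 fragments were counted on genes in each sample. Punches hold all cell types of the tissue, so fewer cells of a type and less RNA per cell cannot be told apart. All 6 listed granule cell markers (*Prox1*, *C1ql2* and others) were present and higher in dorsal DG, with summed levels of 909 to 1090 CPM against 409 to 635 CPM in ventral DG. All 12 listed choroid plexus markers (*Ttr*, *Folr1* and others) were higher in ventral DG, with sums of 406 to 1494 CPM against 28.1 to 221 CPM. Of the 7 markers of thalamus and habenula, 6 could be tested and 4 were higher in dorsal DG. No marker of these 3 lists was at 0 throughout. The part of these differences in cell content in the values below was not tested, unless stated.

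*Ntrk2* makes receptors with and without a kinase domain from one gene, and the bases where its transcripts part are shown because the transcript readout below differed between regions. The deposited tables sum *Ntrk2* over 2 transcripts. In the Gencode vM21 annotation of GRCm38, the first (Ntrk2-201) is 8744 bases long with 2463 coding bases, and the second (Ntrk2-202) is 6846 bases long with 1428 coding bases. Both read the same coding exons up to position 58878262 of chromosome 13, on the plus strand. The first then continues at 58985802 towards the exons of the kinase domain. The second reads into an exon of its own from 58932023, where its coding part ends with the stop codon at 58932060. The last 30 shared bases are in lower case and the bases of one transcript alone are in capitals, for the kinase form up to its 60th own base and for the short form to the end of its stop codon.
Ntrk2-201: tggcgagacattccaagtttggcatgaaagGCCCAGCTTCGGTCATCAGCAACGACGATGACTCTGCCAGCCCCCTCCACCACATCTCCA
Ntrk2-202: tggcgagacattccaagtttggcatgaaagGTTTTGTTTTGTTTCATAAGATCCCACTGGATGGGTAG

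The 7 genes covered a wide range of levels. Levels between genes are given as CPM after TMM normalization per kilobase of transcript, which takes out the effect of gene length. *Sort1* was highest in all 4 groups (87 to 103 CPM per kilobase on average) and *Ntrk2* second (58.3 to 69.1). *Ntrk3* came next in dorsal DG (46.4 ± 2.24 in SH, SD, n = 4, and 48.0 ± 2.21 in EE, n = 5), followed by *Vgf* (31.5 ± 3.64 and 37.9 ± 3.42). In ventral DG this order was the other way round, with *Vgf* at 35.9 ± 5.81 in SH and 47.2 ± 6.67 in EE, and *Ntrk3* at 33.3 ± 1.21 and 34.8 ± 1.69. The samples of these neighbours overlapped in ventral SH and in no other group. *Bdnf* followed in each group (10.97 to 19.8), then *Ntf3* (6.32 to 11.5). *Ngfr* was lowest, at 0.209 to 0.425 CPM per kilobase, and rested on 14 to 46 counts in each sample, so its values carry the largest counting error.

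**Figure D1:**
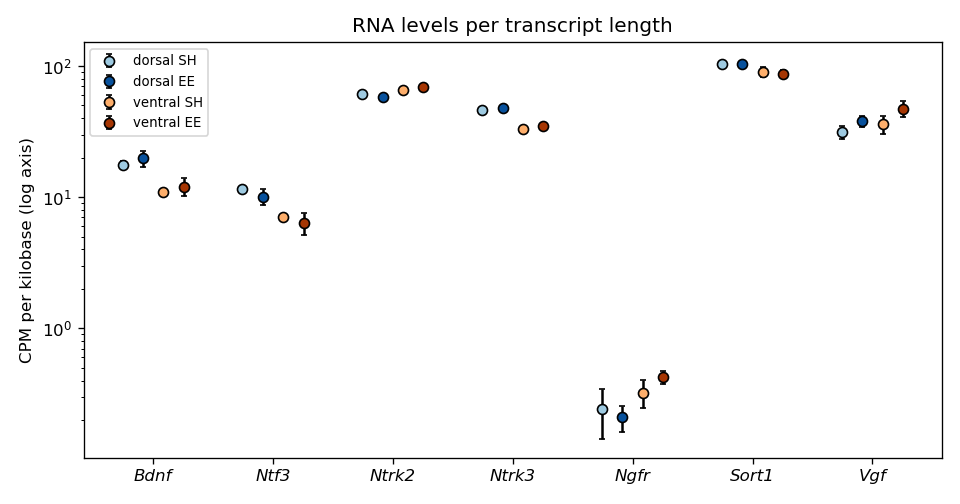
Mean level of each gene in each of the 4 groups, in CPM per kilobase of transcript on a log axis, with bars for the SD over 4 SH or 5 EE samples. *Sort1* and *Ntrk2* lie at the top in every group, *Vgf* passes *Ntrk3* in ventral DG, and *Ngfr* lies far below the rest at 0.209 to 0.425.

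Dorsal and ventral DG differed in both ligands. *Bdnf* and *Ntf3* were each about 60% higher in dorsal DG, and *Ntrk3*, the receptor of neurotrophin-3, was 39.2% higher. *Sort1* was 16.5% higher in dorsal DG, while *Ngfr*, *Vgf* and *Ntrk2* were lower there by 38.6%, 16.0% and 9.13%. The test was edgeR's quasi-likelihood F-test of the dorsal to ventral difference in SH and EE jointly, with Benjamini-Hochberg adjustment over 17040 genes, and fold changes here average both housings. All 7 genes passed a false discovery rate (FDR) of 0.05, which 52.3% of the tested genes also did. The 4 genes higher in dorsal DG stand beside 25.9% of tested genes called in that direction, and the 3 higher in ventral DG beside 26.3%. With a fold change over 20% as well, 4 of the 7 remained, beside 30.9% of the tested genes.

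*Bdnf* (chr2:109674700-109727007, plus strand) was measured at 72.1, 63.1, 73.3 and 73.7 CPM in the dorsal SH samples (replicates 1, 2, 4 and 5). In dorsal EE it was 75.5, 64.3, 78.0, 95.6 and 83.2 CPM. In ventral SH it was 44.1, 43.0, 45.9 and 43.1 CPM, and in ventral EE 45.8, 39.1, 45.8, 58.8 and 52.2 CPM. Every dorsal sample was above every ventral one. The log2 fold change was 0.70 ± 0.07 (SE; edgeR adjusted p = 5.93e-08), and dorsal exceeded ventral in 9 of 9 pools, by 0.55 to 0.77 on the log2 scale.

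*Ntf3* (chr6:126101412-126166910, minus strand) stood at 15.2, 16.0, 15.8 and 15.3 CPM in dorsal SH and at 11.5, 15.4, 12.1, 15.5 and 13.5 CPM in dorsal EE. It was 9.71, 9.81, 9.85 and 8.95 CPM in ventral SH, and 8.58, 9.15, 5.84, 10.3 and 8.71 CPM in ventral EE. The groups of the regions did not overlap, and the lowest value came from ventral EE replicate 3, the sample that also had the lowest *Ntf3* count (149). The log2 fold change was 0.68 ± 0.08 (SE; edgeR adjusted p = 5.62e-07), again higher in dorsal DG in 9 of 9 pools. *Bdnf* and *Ntf3* were higher in the same region as the granule cell markers, whose median log2 fold change was 0.91.

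*Ntrk3* (chr7:78175959-78738012, minus strand) ranged from 118 to 132 CPM in the 9 dorsal samples and from 83.3 to 95.7 CPM in the 9 ventral ones, with no overlap. Its log2 fold change was 0.48 ± 0.03 (SE; edgeR adjusted p = 1.63e-10), the smallest adjusted p of the 7 genes. Of all tested genes, 9.51% were higher in each dorsal sample than in any ventral one, and *Bdnf*, *Ntf3* and *Ntrk3* were among them.

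*Ntrk2* (chr13:58806569-59133970, plus strand) showed the smallest regional difference, with a log2 fold change of -0.14 ± 0.04 (SE; edgeR adjusted p = 0.00191). It was 475, 482, 482 and 456 CPM in dorsal SH against 483, 529, 472 and 498 CPM in ventral SH, and these samples overlapped. In EE it was 473, 453, 473, 435 and 429 CPM in dorsal and 542, 551, 518, 480 and 530 CPM in ventral DG, and here each dorsal sample was below each ventral one, as for 14.3% of tested genes. Astrocytes express much of the brain's kinase-free TrkB. Of 7 astrocyte markers, 3 (*Aldoc*, *Slc1a3* and *Aldh1l1*) were higher in ventral DG and 4 did not pass, and their summed level was 6888 to 8693 CPM in dorsal and 7824 to 10822 CPM in ventral DG. Their part in the *Ntrk2* difference was not tested.

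*Ngfr* (chr11:95568818-95587735, minus strand) was 1.25, 0.987, 0.598 and 0.521 CPM in dorsal SH, and 0.958, 0.829, 0.610, 0.652 and 0.559 CPM in dorsal EE. It was 1.02, 1.05, 1.499 and 0.877 CPM in ventral SH, and 1.44, 1.36, 1.53, 1.30 and 1.70 CPM in ventral EE. SH samples of the regions overlapped and EE samples did not, each dorsal one being below each ventral one, as for 14.3% of tested genes. The log2 fold change was -0.70 ± 0.16 (SE; edgeR adjusted p = 0.000834). In the brain, *Ngfr* is best known from cholinergic neurons and cells of the vessel wall and meninges. The cholinergic markers *Chat* and *Slc18a3* were too low to test, with 25 and 18 counts over all 18 samples. The other one, *Slc5a7*, was tested and not called between regions (-0.19 ± 0.19 log2, SE; edgeR adjusted p = 0.690). Meningeal markers were higher in ventral DG for 4 of 7 genes (*Dcn*, *Lum*, *Igf2* and *Slc13a4*), with sums of 79.9 to 116 CPM against 53.1 to 78.4 CPM in dorsal DG. Mural cell markers were higher in ventral DG for 3 of 5 genes and lower for 1, and their part in the *Ngfr* difference was not tested.

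*Sort1* (chr3:108284082-108361511, plus strand) was 635 to 730 CPM in dorsal and 531 to 653 CPM in ventral samples, an overlap that came from ventral SH. Its log2 fold change was 0.22 ± 0.04 (SE; edgeR adjusted p = 0.000624), and dorsal exceeded ventral in 9 of 9 pools. *Vgf* (chr5:137026392-137033351, plus strand) was lower in dorsal DG, at a log2 fold change of -0.25 ± 0.08 (SE; edgeR adjusted p = 0.0140). It was lower in dorsal DG in 8 of 9 pools, and its regional call was lost without EE replicate 3 (adjusted p = 0.0516).

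**Figure D2:**
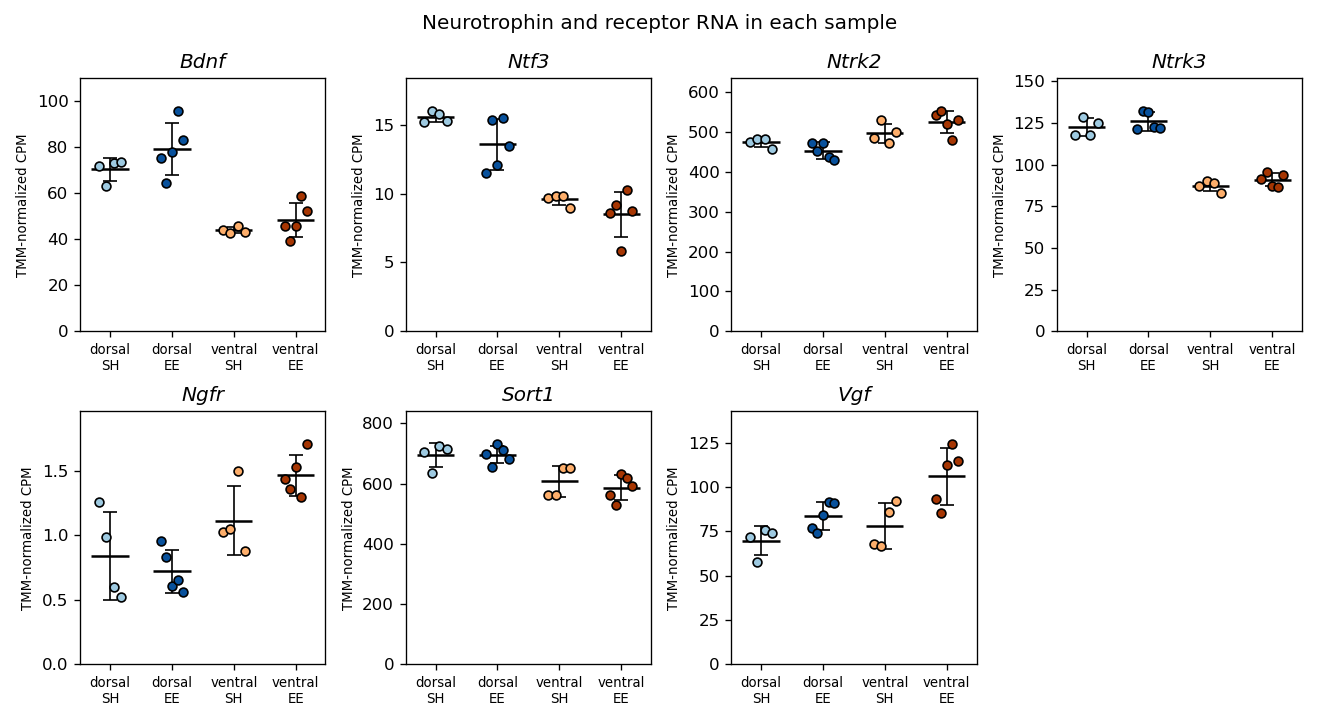
TMM-normalized CPM of each gene in each of the 18 samples, with the group mean as a line and the SD as a bar, each panel on its own linear axis from 0. *Bdnf*, *Ntf3* and *Ntrk3* separate the dorsal from the ventral samples, and *Vgf* is highest in ventral EE at 85.2 to 124 CPM.

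Each housing was also examined alone. In EE all 7 genes differed between regions (46.5% of tested genes did), and in SH 4 did, namely *Bdnf*, *Ntf3*, *Ntrk3* and *Sort1* (41.7% of tested genes). In SH, *Ntrk2* had a log2 fold change of -0.06 ± 0.05 (SE; edgeR adjusted p = 0.359), *Ngfr* -0.38 ± 0.24 (adjusted p = 0.218) and *Vgf* -0.16 ± 0.12 (adjusted p = 0.281). In EE the same genes had -0.21 ± 0.05 (adjusted p = 0.000982), -1.02 ± 0.22 (adjusted p = 0.000527) and -0.34 ± 0.10 (adjusted p = 0.00911). Without SH replicate 1 the SH call of *Sort1* was lost (0.15 log2; edgeR adjusted p = 0.137), and *Ngfr* in SH was at -0.70 (adjusted p = 0.0561). With pool as a replicate block in the model, which follows the shared mice, 5 genes passed in SH, *Vgf* being added (-0.16 log2; edgeR adjusted p = 0.0270). The block also raised the calls in SH among all 17040 tested genes, from 7103 to 8022. The direct test of whether the regional difference changed with housing was the interaction of region and housing. It was passed by 0 of the 7 genes in edgeR, DESeq2 and the other fits (by 0.00587% of tested genes in edgeR). In the edgeR fit without a block, 0 of the 7 had an unadjusted p under 0.05 (3.25% of tested genes). The nearest were *Ntrk2* (-0.15 ± 0.07 log2, SE; unadjusted p = 0.0514) and *Ngfr* (-0.64 ± 0.33; unadjusted p = 0.0653), both with an adjusted p of 1.00 by edgeR. With pool as a block, *Vgf* (-0.18 ± 0.07 log2, SE; edgeR unadjusted p = 0.0256) and *Ntrk2* (-0.15 ± 0.06; unadjusted p = 0.0275) were nearest, both with an adjusted p of 0.931. A regional difference of these genes particular to EE was therefore not shown.

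**Figure D3:**
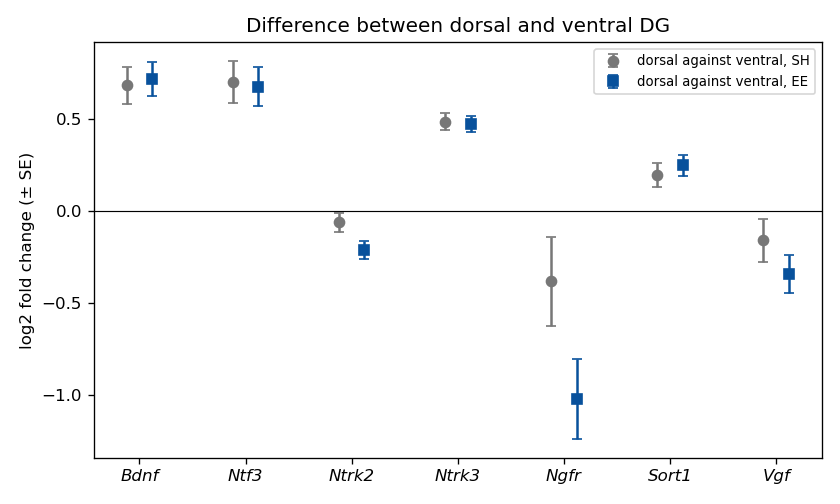
Log2 fold change between dorsal and ventral DG (positive is higher in dorsal) with its SE, for SH (grey circles) and EE (blue squares). *Bdnf*, *Ntf3* and *Ntrk3* lie near the same values in both housings, and *Ntrk2*, *Ngfr* and *Vgf* lie further from 0 in EE, a difference that the interaction test did not pass.

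The transcripts of *Ntrk2* differed in estimated mean length between regions. The deposited tables give for each gene its transcript length averaged over its transcripts by their estimated abundance. This length moves with the estimated mixture of transcripts, and the error of that estimate was not examined. For *Ntrk2* it was 7767, 7662, 7762 and 7781 bases in dorsal SH, and 7713, 7716, 7790, 7785 and 7804 bases in dorsal EE. It was 7568, 7572, 7670 and 7656 bases in ventral SH, and 7551, 7502, 7620, 7656 and 7606 bases in ventral EE. The lowest dorsal value, of SH replicate 2, lay just below the highest ventral one, of SH replicate 4. Within pools the dorsal length was greater in 9 of 9, by 153 bases on average (90.3 to 214). An exact two-sided permutation test over the exchanges within pools gave p = 0.00391, the smallest it can give, and an adjusted p of 0.0352 over the 18 length tests. The call was lost with the effective length (adjusted p = 0.0820) and in 8 of the 9 tests that left out a pool (adjusted p = 0.0703), where 8 pools limit how small p can be, while the difference stayed at 146 to 161 bases. A longer mean is a larger estimated share of the longer of the 2 transcripts, which in vM21 is the one with the kinase. That share itself was not computed, since the transcript lengths of the annotation the authors used were not held here.

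Among the other genes, *Ntf3* passed the same exact test (p = 0.00391, adjusted p = 0.0352) with a mean difference of only -1.29 bases in a length of about 1345. *Bdnf*, *Ntrk3*, *Sort1* and *Vgf* did not pass, and *Ngfr* had a single length throughout. EE passed no length test in either region. The nearest was *Vgf* in ventral DG, which averaged 73.7 bases longer in EE (exact two-sided permutation p = 0.0159, the smallest that 4 against 5 samples allow, adjusted p = 0.0952).

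**Figure D4:**
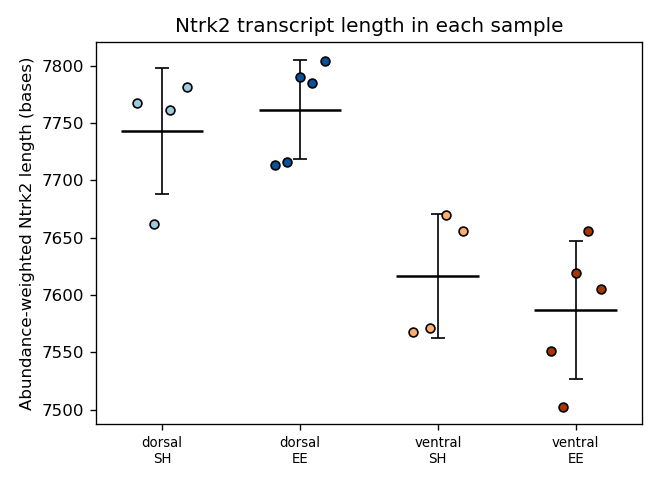
Abundance-weighted mean length of *Ntrk2* transcripts in bases in each sample, with group means as lines and the SD as bars, on an axis that does not start at 0. Dorsal samples lie at 7662 to 7804 bases and ventral samples at 7502 to 7670 bases.

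In the same model, which has no block, none of the 7 genes passed the threshold for EE. With the replicate number as a block, a pairing that was not shown, *Vgf* passed in both regions. Without the block, *Vgf* came nearest in both regions, with 19.8% more RNA in EE in dorsal and 35.8% more in ventral DG. In dorsal DG, 0 of 7 genes passed the edgeR FDR of 0.05 (0.716% of tested genes did), 1 had an unadjusted p under 0.05 (8.81% of tested genes), and DESeq2 called 0. In ventral DG, 0 of 7 passed in edgeR (0.246% of tested genes), 1 had an unadjusted p under 0.05 (7.58%), and DESeq2 called 1, *Vgf*. Among all 17040 tested genes, DESeq2 called 87 in ventral DG and edgeR 42.

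*Vgf* was 71.7, 57.6, 75.9 and 74.0 CPM in dorsal SH and 77.0, 74.2, 84.4, 91.6 and 91.2 CPM in dorsal EE. In ventral SH it was 67.8, 66.5, 85.9 and 92.1 CPM, and in ventral EE 93.4, 85.2, 113, 124 and 115 CPM. The housings overlapped in both regions, in each only by EE replicate 2, which lay below the highest SH sample. The log2 fold change was 0.26 ± 0.11 (SE; edgeR unadjusted p = 0.0274, adjusted p = 0.465) in dorsal and 0.44 ± 0.11 (unadjusted p = 0.000567, adjusted p = 0.124) in ventral DG. When EE and SH samples of the same replicate number were set side by side, *Vgf* was higher in EE in 4 of 4 numbers in each region, by 0.10 to 0.36 in dorsal and 0.32 to 0.53 on the log2 scale in ventral DG. With the replicate number as a block, the ventral difference of *Vgf* passed (0.43 log2, edgeR adjusted p = 8.16e-05, with 0.616% of tested genes called). This block was fitted over both regions together, and with it the dorsal difference passed as well (0.25 log2, edgeR adjusted p = 0.0133). The labels do not say what a number shares. Correlations between samples of unlike numbers were not computed, so a pairing by number was not shown in either region. The effects of EE on *Vgf* in both regions were not shown to differ (interaction without a block -0.18 ± 0.16 log2, SE; edgeR unadjusted p = 0.257). With pool as a block the interaction was -0.18 ± 0.07 log2 (edgeR unadjusted p = 0.0256, adjusted p = 0.931).

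Neither ligand passed the test of housing. *Bdnf* was 12.5% higher in EE in dorsal DG (log2 fold change 0.17 ± 0.10, SE; edgeR adjusted p = 0.658) and 9.90% higher in ventral DG (0.14 ± 0.10; adjusted p = 0.802). Its spread was wider in EE than in SH in dorsal (SD 11.4 against 5.02 CPM) and in ventral DG (SD 7.45 against 1.33 CPM). EE replicate 4 was the highest and EE replicate 2 the lowest of the EE samples in both regions. Without EE replicate 4 the log2 fold changes were 0.097 in dorsal and 0.056 in ventral DG. *Ntf3* was 12.7% lower in EE in dorsal (-0.20 ± 0.10; adjusted p = 0.633) and 11.2% lower in ventral DG (-0.17 ± 0.11; adjusted p = 0.779), and the ventral value was -0.062 without EE replicate 3. The receptors *Ntrk2*, *Ntrk3* and *Sort1* differed by at most 5.80% between housings in either region. *Ngfr* had a log2 fold change of 0.41 ± 0.21 in ventral DG (SE; edgeR adjusted p = 0.693), at its low counts.

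**Figure D5:**
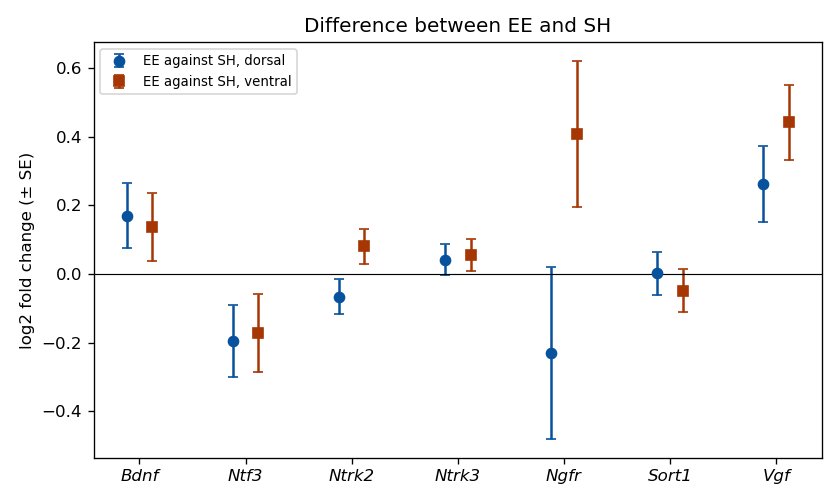
Log2 fold change between EE and SH (positive is higher in EE) with its SE, in dorsal (blue circles) and ventral (brown squares) DG. *Vgf* lies above 0 in both regions at 0.26 and 0.44, and no gene passed an FDR of 0.05 in the model without a block that is plotted.

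Genes that act with neurotrophins were read from 8 lists with 74 genes, of which 72 could be tested. Between regions 47 of the 72 were called, with higher values in dorsal DG for 28 and in ventral DG for 19, which is 65.3% against 52.3% of all tested genes. Their median log2 fold change was 0.03 beside -0.0046 over all tested genes. Under EE, 2 of 72 (2.78%) were called in dorsal and 1 of 72 (1.39%) in ventral DG, beside 0.716% and 0.246% of all tested genes. Over the 20 alternatives both counts ran from 0 to 2. The lists were chosen with earlier results of these data known, so these shares are a description.

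*Ntf5*, neurotrophin-4, was near the limit of the filter, with 109 counts over all 18 samples, and was not called between regions.

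RNAs of proteins that cut and sort neurotrophin precursors went both ways. Of 9 tested cleavage genes, dorsal DG had the higher level for 2 and ventral DG for 3 (55.6% called, beside 52.3% of all tested genes). The proconvertase *Pcsk2* was higher in dorsal DG (0.62 ± 0.05 log2, SE) and *Pcsk1*, its partner in secretory granules, in ventral DG (-0.73 ± 0.07). Of 8 sorting and release genes, 75% were called, and 2 were higher in dorsal DG, among them the sortilin relative *Sorl1* (0.58 ± 0.04). The other 4 called genes were higher in ventral DG, among them *Hap1* (-0.69 ± 0.04), which carries BDNF vesicles, and *Cpe* (-0.50 ± 0.04), a sorting receptor for granule cargo. The sortilin relative *Sorcs3* was called under EE in dorsal DG (0.41 ± 0.09; edgeR adjusted p = 0.0193) and had nearly the same difference in ventral DG (0.40 ± 0.09; adjusted p = 0.0501). The dorsal call was lost without EE replicate 3 or 4 or SH replicate 2 or 4, and in limma on TPM.

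Of 7 genes that act with p75, each region had the higher level for 2, with the Nogo receptor *Rtn4r* at 0.40 ± 0.05 (log2, SE). That is 57.1% called, beside 52.3% of all tested genes. Of 15 Trk adaptors and scaffolds, 6 had more RNA in dorsal DG and 4 in ventral DG (66.7% called). They include the TrkB scaffold *Kidins220* (0.29 ± 0.03) and *Plcg1* (0.25 ± 0.04), which is recruited to active Trk receptors, against *Sh2b2* (-0.46 ± 0.08). Of 13 downstream kinases and GTPases, 6 had more RNA in dorsal DG and 2 in ventral DG (61.5% called), all 8 by less than 20%. Among 8 granins and *Vgf* peptide receptors, *Scg2* was higher in dorsal DG (0.27 ± 0.05) and *Scg5* in ventral DG (-0.51 ± 0.04), beside 1 further gene each way (50% called). Under EE, 0 of the 8 were called by edgeR in either region, while *Vgf* itself had the values above.

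Of 10 transcription factors known to act at *Bdnf* promoters, 9 were called between regions (52.3% of tested genes were), with 7 higher in dorsal DG (25.9%). The activity-induced factor *Npas4* was higher in dorsal DG (1.11 ± 0.10 log2, SE; edgeR adjusted p = 6.17e-09), as were *Mef2c* (0.78 ± 0.06) and *Mef2d* (0.51 ± 0.03), while *Arnt2*, a partner of *Npas4*, was higher in ventral DG (-0.37 ± 0.05). *Npas4* was also the one factor called under EE. It was 2.63 ± 0.17 CPM (SD, n = 4) in dorsal SH and 6.34 ± 0.61 CPM (n = 5) in dorsal EE, a log2 fold change of 1.27 ± 0.12 (SE; edgeR adjusted p = 1.82e-06). In ventral DG it was 1.06 ± 0.31 CPM in SH and 3.34 ± 0.35 CPM in EE (1.65 ± 0.15; adjusted p = 3.01e-06). The call of *Npas4* was kept in 17 of 19 alternatives in dorsal and 18 of 19 in ventral DG. It was lost in limma on log2(TPM + 1) in both regions and on log2(TPM + 0.1) in dorsal DG.

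One *Bdnf* promoter is shown because such factors are read against it. RefSeq start sites gave 7 windows for *Bdnf*, 2 for *Ntf3* and 1 each for *Ntrk2* and *Ngfr*, each searched over the 250 bases before the start on both strands. *Ntrk3*, *Sort1* and *Vgf* had no window in the promoter set used and were not searched. The letters CACGTCA, which hold the shorter cyclic AMP response core TGACGT on the other strand, occurred in 1 of the 7 *Bdnf* windows and in 1.65% of 32817 windows of all genes. The core alone occurred in 6.46% of windows and, for the genes searched, in the same *Bdnf* window alone. The 8 letters TGACGTCA occurred in none of the 11 windows and in 1.55% of all. The stretch is at chr2:109692339-109692435 of GRCm38.p6, plus strand, and ends at the start site, with the match in capitals. A match is a description of the letters and no site of binding.
Bdnf: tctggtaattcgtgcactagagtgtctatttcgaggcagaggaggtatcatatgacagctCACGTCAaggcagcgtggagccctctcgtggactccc

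Lastly, the genes most like each member were found by Pearson's r of log2 CPM over the 18 samples, among genes of at least 1 CPM on average. These samples share the split between regions, which alone gives a high r, so the values are a description. *Bdnf* was most like *Slc35f3* and *Hectd2* (r = 0.975 and 0.974). *Ntf3* was most like *Draxin*, *Vps37b* and *Itga8* (r = 0.966, 0.951 and 0.949). *Ntrk3* was most like *Ptchd4*, *Fam163b* and *Pitpnm2* (r = 0.989, 0.986 and 0.984), and *Sort1* like *Mia3*, *Nptx1* and *Zfyve1* (r = 0.978, 0.977 and 0.973). *Ntrk2* was most like *Gli3*, *Mtss1l* and *Ptprt* (r = 0.955, 0.946 and 0.945). *Vgf* (at most 0.904, with *Nefl*) and *Ngfr* (at most 0.861, with *Gm20501*) had lower values. The next for *Vgf* were *Prkab2* (r = 0.880) and *Hspa1b* (0.878), and for *Ngfr* they were *Prdm16* (0.860) and *Serpinb1b* (0.856).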

How the data were processed

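RNA-Seq (stranded total RNA, paired reads of 100 bases) of 20 samples was used, and the bisulfite libraries were not analysed here. Per the labels' processing notes, tools were Trim Galore 0.4.0, STAR 2.5.1b and RSEM 1.2.30 on mm10. The authors deposited unnormalized fragment counts per gene, unstranded and for each strand. A further table per sample, deposited by the authors, holds each gene's expected count, TPM, abundance-weighted transcript length and effective length. Other columns were not used.

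Counts on the reverse strand (95.5% to 96.5% of stranded counts) were fitted for genes that exceeded 10 counts in 2 or more samples, in edgeR 4.0.16 (R 4.3.3) with TMM normalization and the 4 groups in one model. Fragments not assigned to a gene were left out of library sizes (32.6% to 40.9% of each sample). P values were adjusted by Benjamini-Hochberg over all tested genes, and SEs were derived from fold changes and F statistics. The members and lists were chosen with earlier results of these data known. Named are the 7 members, up to 4 called genes of each list with the smallest adjusted p, and the 3 most like genes. A few genes within these rules are not reported here. Genes too low to test were named after their values were seen. The length tests (exact permutation, scipy 1.17.1, Benjamini-Hochberg over 18 tests) use the same 18 samples. The study left out an SH sample for *Xist* and gives no number for it. SH replicate 3 was taken to be that sample.

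The legend of the study connects dorsal and ventral samples of the same mice, so the pool pairs them. Deviations from group means correlated at -0.0840 to 0.189 in these 9 pairs. SH and EE samples share numbers only, and their correlations were 0.107 to 0.163 in ventral (4 of 4 over 0.1) and 0.0815 to 0.175 in dorsal DG (3 of 4). Correlations between samples of unlike numbers were not computed for comparison. These values therefore do not show that a number is a pairing in either region. The block by replicate number was fitted over both regions together and stands as an alternative. The 40 pairs of samples within groups had chi-square per degree of freedom of 2.77 to 35.8, so no library was a copy of another in its group. Pairs across groups were not compared.

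Alternatives were RLE factors, the likelihood ratio test, DESeq2 1.42.0, other filters, unstranded and rounded expected counts, limma 3.58.1 on log2(TPM + 1) and log2(TPM + 0.1), all 20 samples, blocks, and leaving out each pool. Genes of the 7SL RNA took much of the TPM (the top one 20.6% to 30.4%), so TPM was not used to compare samples. The edgeR procedure without a block was run on simulated data with independent samples, for the region and dorsal EE tests only. The ventral EE, interaction and blocked tests were not simulated. Reads on the opposite strand were at most 1.54% for the 7 genes. Coordinates are from Gencode vM21 (GRCm38) and promoter and genome sequence from RefSeq GRCm38.p6.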

Additional observations from a re-analysis of the deposited data

Results flagged for a closer look

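Values of the 7 genes and their transcript lengths were searched for samples that stood apart from their group of 4 or 5, and 5 of 52 groups had one. Chance gives about 1 in 20 such groups. *Bdnf* in dorsal SH replicate 2 was 63.1 CPM, below the 72.1 to 73.7 CPM of the others. *Ntf3* in ventral SH replicate 5 was 8.95 CPM, below 9.71 to 9.85 CPM. The mean transcript length of *Ntrk2* was 7662 bases in dorsal SH replicate 2, against 7762 to 7781 in the others. That of *Sort1* was 6785 bases in ventral EE replicate 2, against 6771 to 6775, and that of *Vgf* was 2330 bases in ventral EE replicate 4, against 2215 to 2230.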

How the results depend on the processing

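Between regions, *Bdnf*, *Ntf3* and *Ntrk3* kept their direction and call in all 21 alternatives, with log2 fold changes of 0.68 to 0.87, 0.65 to 0.87 and 0.46 to 0.65. The count of genes called was 6 to 7 over the fits that each left out a pool. It fell to 3 with limma on log2(TPM + 1) and to 3 with log2(TPM + 0.1), and the same count of 3 was found in EE alone under both. There *Ntrk2* reversed between regions (0.025 and 0.025 log2). These 2 settings shifted the median of all genes, to 0.09 and 0.16 between regions, to -0.17 and -0.23 for EE in dorsal DG and to -0.10 and -0.15 in ventral DG. They reversed *Bdnf* (-0.080 and -0.087), *Ntrk3* (-0.19 and -0.19) and *Sort1* (-0.24 and -0.25) for EE in dorsal DG. In ventral DG they reversed *Bdnf* (-0.035 and -0.051), *Ntrk2* (-0.078 and -0.081) and *Ntrk3* (-0.11 and -0.12). For the interaction they reversed *Bdnf* (-0.046 and -0.036) and *Sort1* (-0.035 and -0.034), and rounded expected counts reversed *Ntrk3* (0.0067) and all 20 samples *Ntf3* (0.0035).

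For EE in ventral DG the count of genes called was 1, *Vgf*, with the likelihood ratio test (1), DESeq2 (1), no filter on low counts (1), all 20 samples (1) and the replicate block (1), and 0 to 1 when each pool was left out, with 1 without EE replicate 2 (adjusted p = 0.0246). Over its 20 alternatives the adjusted p of *Vgf* ran from 8.16e-05 to 0.750. Among all tested genes, the likelihood ratio test called 95 there, DESeq2 87, no filter 80, all 20 samples 52 and the replicate block 105. The main fit called 42. In dorsal DG the replicate block gave 1, *Vgf* (adjusted p = 0.0133), and moved all calls from 122 to 243 genes. Numbers are no shown pairing in either region. The block reversed *Sort1* in dorsal DG (-0.019) and changed no other call of the 7 genes than those named and that of *Vgf* between regions in SH alone. Leaving out pools also gave values of the other sign. *Sort1* under EE in dorsal DG ran from -0.039 to 0.026 and *Ngfr* there from -0.41 to 0.048. The interaction of *Bdnf* ran from -0.0045 to 0.070, that of *Ntf3* from -0.096 to 0.036 and that of *Ntrk3* from -0.046 to 0.024. The EE difference in *Ntrk2* length in dorsal DG ran from -8.33 (without SH replicate 2) to 31.5 bases. The test of length between regions was passed by 1 gene with all 20 samples, by 0 with the effective length, and by 0 to 3 when each pool was left out. *Ntrk2* lost its call there except without SH replicate 2 (adjusted p = 0.0469). The other causes were not tested. *Ngfr* could not be tested with the TPM filter. At this depth, *Ngfr* is limited by its 14 to 46 counts.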
